A study of Sus scrofa with 9 samples.

Results

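The genes described here act in cholesterol synthesis and its control, in fatty acid desaturation or in the uptake of oxidised lipoprotein. They were 8 listed genes: the enzymes HMGCS1, IDI1, FDPS, FDFT1 and SQLE, the sterol sensor gene INSIG1, the fatty acid desaturase gene SCD, and OLR1, which encodes a receptor for oxidised LDL. A probe set, a group of array probes for 1 transcript, was taken where the platform annotation gave it exactly 1 gene symbol and that symbol was listed. This found 8 probe sets for 7 of the 8 genes, of 24123 probe sets in all, and IDI1 was not analysed here. INSIG1 had 2 probe sets and each other gene 1. OLR1 was the only lipoprotein receptor among the 7.

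The RNA came from endothelial cells of pig coronary arteries, and was read on 3 Affymetrix porcine arrays in each of 3 groups. Passage 4 cells had been passaged weekly in culture and are called senescent in the labels. Regenerated cells had regrown in the animal after the endothelium was stripped from the vessel, and were then scraped off and cultured with no passage. Passage 1 cells, kept for 1 week, were the controls. The amount of total RNA labelled was 1 ug for passage 4, 0.5 to 1 ug for regenerated and 1 ug for passage 1 arrays. RNA input, passage history and group therefore cannot be told apart in the comparisons with regenerated cells. No label ties the 3 arrays of a group to different animals or cultures, so p-values speak only of array-to-array spread, part of which may be technical.

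Values are MAS5 signals, linear intensities that were already scaled per array. Trimmed means were 499.9 in each array and median signals lay between 85.9 and 108. Arrays correlated with r from 0.937 to 0.974 within groups and from 0.898 to 0.946 between groups across probe sets, which are not independent replicates. In the spike-in transcripts dap and thr, 5' signal minus 3' signal was -2.09 to -1.77 on the log2 scale in the 3 passage 4 arrays and passage 1 array 1, and -5.19 to -4.25 in the 3 regenerated arrays and passage 1 arrays 2 and 3. This split, called spike-in class below, is read from these values only, since no label names a labelling batch. It put all passage 4 arrays in one class and all regenerated arrays in the other. The 5' minus 3' signal of the cells' own actin transcript was -0.54 to -0.35 at passage 4, -2.78 to -1.65 in regenerated cells and -1.71 to -0.67 at passage 1. For GAPDH it was -0.07 to 0.01 at passage 4, -0.56 to -0.24 in regenerated cells and -0.07 to 0.07 at passage 1. Of 8 endothelial markers 6 were bright enough to be tested. CDH5, which encodes the junction protein VE-cadherin, had signals of 8524 to 9924 at passage 4, 8562 to 11246 in regenerated cells and 9096 to 10855 at passage 1. NOS3 had 684 to 1013 at passage 4, 1095 to 1749 in regenerated cells and 1175 to 1857 at passage 1. By brightest probe sets, NOS3 was the 1 of 6 with an adjusted p under 0.05 at passage 4 against passage 1 (log2 difference -0.97). There 4 of the 6 had lower and 2 higher means. In the other comparisons 0 of 6 passed. A dimmer probe set of PECAM1 had signals of 4009 to 4806 at passage 4, 1241 to 2378 in regenerated cells and 2944 to 4984 at passage 1. Its brightest had 7343 to 9079, 5520 to 7771 and 7126 to 8645 in that order. The summed signal of 5 fibroblast markers was 1142 to 1728 at passage 4, 3125 to 5340 in regenerated cells and 958 to 3107 at passage 1. Most of it was FBLN1, at 804 to 1195, 2697 to 4409 and 754 to 2879 in that order. The 5 did not move together. DCN had means of 127 at passage 4, 40.4 in regenerated cells and 35.1 at passage 1, and COL1A2 of 183, 169 and 161. LUM had signals of 96.7 to 160 at passage 4, 30.1 to 1014 in regenerated cells and 5.80 to 17.9 at passage 1. Of 4 fibroblast markers tested, 0 passed at passage 4 against passage 1. In regenerated cells against passage 1, 1 was higher past the threshold. At passage 4 against regenerated cells, 1 was lower past it. The summed signal of 5 smooth muscle markers was 6208 to 21141 at passage 4, 18989 to 29647 in regenerated cells and 7986 to 23844 at passage 1. CNN1 had 15.4 to 92.1 at passage 4, 343 to 419 in regenerated cells and 26.1 to 399 at passage 1. ACTA2 had 485 to 10501, 10021 to 18924 and 196 to 13189 in that order, and TAGLN 5674 to 10479, 6376 to 11340 and 7707 to 10231. Of these 3, the ones tested, 1 was lower past the threshold at passage 4 than in regenerated cells. In the other comparisons 0 of 3 passed. None of 5 leukocyte and macrophage markers was bright enough to be tested, and their sum was 59.0 to 113 at passage 4, 81.4 to 91.9 in regenerated cells and 64.6 to 163 at passage 1. The sum of 2 adipocyte markers was 43.2 to 57.8 at passage 4, 80.1 to 125 in regenerated cells and 54.0 to 66.2 at passage 1, with ADIPOQ too dim to be tested and LEP lower at passage 4 than in regenerated cells (log2 difference -0.98, adjusted p = 0.0366). The part of other cell types and of RNA quality in the values below was not tested. A lower signal in such bulk RNA cannot tell fewer cells of a type from less RNA per cell.

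Cells build cholesterol from acetyl-CoA through the mevalonate pathway, which makes isoprenoid units, and through squalene, which is closed into the sterol ring. When sterols run low in the membrane of the endoplasmic reticulum, SCAP carries the transcription factor SREBP-2 to the Golgi for cleavage, and the genes of the pathway are switched on together. INSIG1 holds SCAP back when sterols are plentiful, and is itself a target of SREBP. Endothelial cells also take up oxidised LDL through LOX-1, the product of OLR1, a receptor studied in atherosclerosis.

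No measured gene of the list differed between groups past the threshold, an adjusted p under 0.05 from limma after Benjamini-Hochberg adjustment over the 15299 probe sets tested. Passage 4 against passage 1 gave 0 of 7 genes, and 4.79% of all tested probe sets passed there, 2.71% higher and 2.08% lower. Regenerated cells against passage 1 also gave 0 of 7, where 5.49% of all probe sets passed, 2.98% higher and 2.51% lower. Passage 4 against regenerated cells gave 0 of 7, where 12.5% of all passed. At an unadjusted p under 0.05 the counts were 0, 3 and 0 of 7 in these comparisons, against 19.7%, 22% and 28.6% of all tested probe sets. The 3 genes were HMGCS1, FDFT1 and INSIG1, each with a higher mean in regenerated cells. Groups that did not overlap were found for FDPS alone, higher at passage 4 than at passage 1, where 15.3% of all probe sets were separated upward and 9.61% downward. In regenerated cells against passage 1 the 7 genes all overlapped, while 12.3% of all probe sets were separated upward and 10.8% downward. They all overlapped at passage 4 against regenerated cells too, where these shares were 20.1% and 16.1%. Differences below are on the scale of log2(signal + 16), which understates the change of dim genes.

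**Figure D1:**
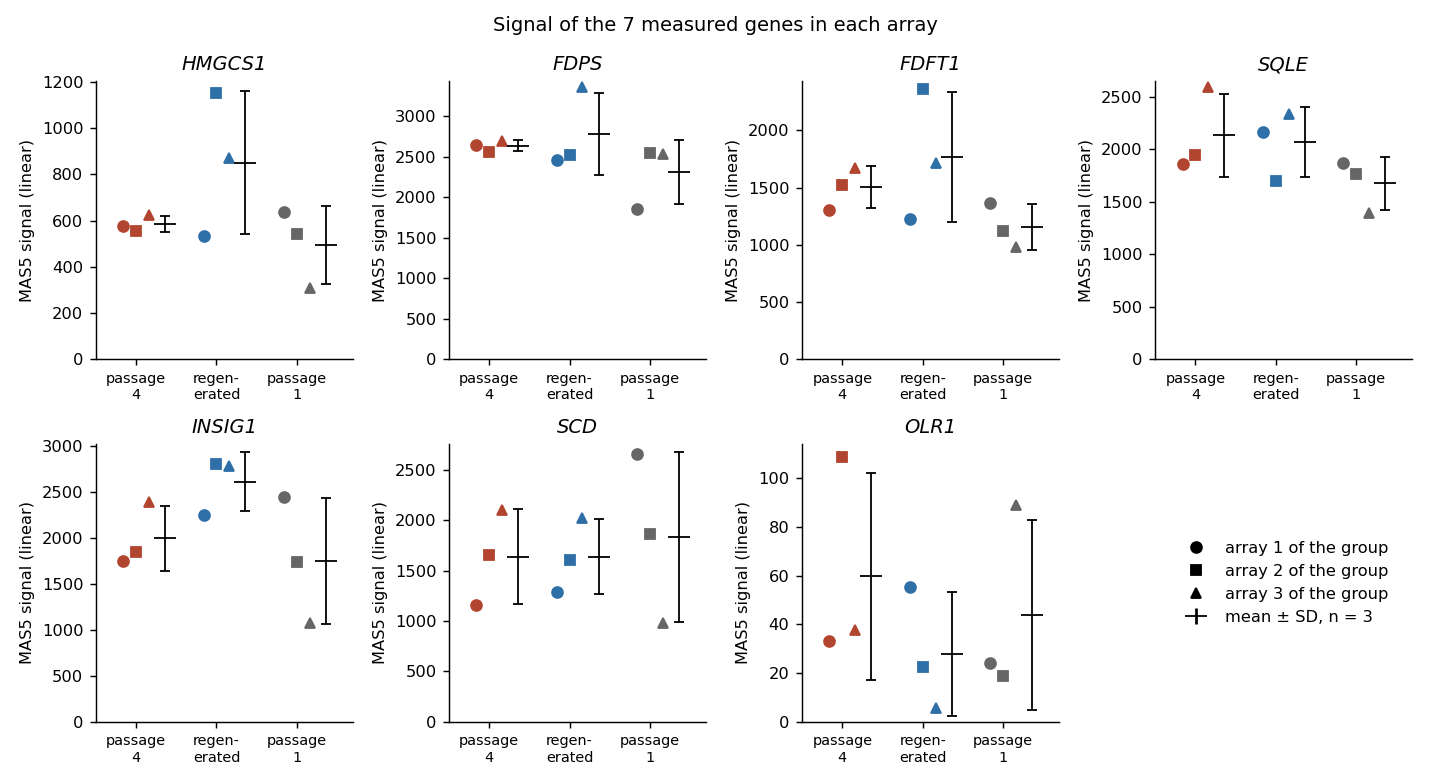
MAS5 signal on a linear scale (vertical axis) of the brightest probe set of each of the 7 measured genes, for passage 4, regenerated and passage 1 arrays. Symbols mark arrays 1 to 3 of a group, and the black bar is the mean ± SD (n = 3). The groups overlap for each gene except that the passage 4 arrays of FDPS lie above the passage 1 arrays, and passage 1 array 3 is the lowest of the 9 arrays for HMGCS1, FDFT1, SQLE, INSIG1 and SCD.

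Of the mevalonate pathway, HMGCS1 and FDPS were measured. HMGCS1, which encodes the enzyme that makes HMG-CoA for mevalonate synthesis, had signals of 574, 556 and 625 in the passage 4 arrays, 533, 1153 and 870 in arrays of regenerated cells, and 636, 541 and 308 in the passage 1 arrays. Regenerated arrays 2 and 3 stood above all other arrays, while regenerated array 1 lay within the passage 1 range. The means were 585 ± 35.8 at passage 4, 852 ± 310 in regenerated cells and 495 ± 169 at passage 1 (SD, n = 3 each). In regenerated cells against passage 1 the log2 difference was 0.76 (95% interval 0.08 to 1.43, adjusted p = 0.176), the largest among the 7 genes in that comparison. At passage 4 against passage 1 it was 0.29 (interval -0.38 to 0.97, adjusted p = 0.667), and at passage 4 against regenerated cells -0.46 (-1.14 to 0.21, adjusted p = 0.352).

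FDPS, for the synthase of farnesyl diphosphate, the branch point to sterols and prenylated proteins, had signals of 2642, 2565 and 2699 in the passage 4 arrays, 2457, 2525 and 3362 in arrays of regenerated cells, and 1852, 2545 and 2531 in the passage 1 arrays. All 3 passage 4 arrays stood above all 3 passage 1 arrays, although passage 4 array 2 was close to passage 1 arrays 2 and 3. The log2 difference there was 0.20 (SE 0.18, adjusted p = 0.598). It was 0.27 in regenerated cells against passage 1 (adjusted p = 0.416) and -0.06 at passage 4 against regenerated cells (adjusted p = 0.854). FDPS was the steadiest of the 7 genes, with an SD within groups of 0.21 on the log2 scale, against a median of 0.31 over all tested probe sets.

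The squalene enzymes were FDFT1 and SQLE. FDFT1, for squalene synthase, the first step committed to sterols, had signals of 1307, 1527 and 1674 in the passage 4 arrays, 1225, 2362 and 1719 in arrays of regenerated cells, and 1368, 1123 and 976 in the passage 1 arrays. Its order over arrays was close to that of HMGCS1, with regenerated array 2 highest and passage 1 array 3 lowest. The means were 1503 ± 185 at passage 4, 1769 ± 570 in regenerated cells and 1156 ± 198 at passage 1 (SD, n = 3 each). The log2 difference was 0.57 in regenerated cells against passage 1 (95% interval 0.05 to 1.09, adjusted p = 0.182), 0.38 at passage 4 against passage 1 (-0.14 to 0.90, adjusted p = 0.429) and -0.19 at passage 4 against regenerated cells (adjusted p = 0.643). Without regenerated array 1, FDFT1 rose by 0.81 in regenerated cells (adjusted p = 0.0485, the lowest of 17 alternatives, which ran up to 0.492).

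SQLE, for squalene epoxidase, a rate-limiting step after squalene, had signals of 1859, 1943 and 2589 in the passage 4 arrays, 2168, 1697 and 2337 in arrays of regenerated cells, and 1864, 1766 and 1390 in the passage 1 arrays. The groups overlapped in each comparison. The log2 difference was 0.34 at passage 4 against passage 1 (SE 0.20, adjusted p = 0.383), 0.30 in regenerated cells against passage 1 (adjusted p = 0.402) and 0.04 at passage 4 against regenerated cells (95% interval -0.39 to 0.47). That last interval spans 0.765-fold to 1.38-fold, so a larger difference of SQLE between passage 4 and regenerated cells lay outside it.

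INSIG1 had signals of 1742, 1843 and 2390 in the passage 4 arrays, 2243, 2804 and 2783 in arrays of regenerated cells, and 2442, 1733 and 1075 in the passage 1 arrays. The passage 1 arrays spread more widely than those of the other groups, and passage 1 array 1 stood above regenerated array 1. The log2 difference was 0.64 in regenerated cells against passage 1 (95% interval 0.07 to 1.21, adjusted p = 0.175), 0.25 at passage 4 against passage 1 (adjusted p = 0.666) and -0.39 at passage 4 against regenerated cells (adjusted p = 0.35). Without passage 1 array 1, INSIG1 rose by 0.92 in regenerated cells (adjusted p = 0.0455). A fit with the spike-in class as a block, which sets the regenerated arrays against passage 1 arrays 2 and 3, gave the same 0.92 (adjusted p = 0.0454), and the 17 alternatives ran up to an adjusted p of 0.463. The dimmer probe set of INSIG1 had signals of 64.5, 42.1 and 46.5 in the passage 4 arrays, 7.34, 47.5 and 37.3 in arrays of regenerated cells, and 40.4, 19.4 and 7.93 in the passage 1 arrays. It lay at or below the 40th percentile of its own array in 8 of 9 arrays and was not tested, although its passage 4 arrays all exceeded its passage 1 arrays.

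SCD, for stearoyl-CoA desaturase, which makes monounsaturated fatty acids and is also driven by SREBP, had signals of 1155, 1658 and 2102 in the passage 4 arrays, 1290, 1603 and 2026 in arrays of regenerated cells, and 2658, 1868 and 975 in the passage 1 arrays. Passage 1 held both the highest and the lowest of the 9 arrays. The log2 differences were close to 0, at -0.09 for passage 4 against passage 1, -0.07 for regenerated cells against passage 1 and -0.02 for passage 4 against regenerated cells (adjusted p from 0.92 to 0.98). The 95% intervals were wide, -0.82 to 0.65 in the first and -0.80 to 0.66 in the second, and the first spans 0.565-fold to 1.56-fold.

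OLR1 was dim and uneven. It had signals of 33.0, 109 and 37.5 in the passage 4 arrays, 55.3, 22.6 and 5.53 in arrays of regenerated cells, and 24.3, 18.7 and 88.9 in the passage 1 arrays. It passed the filter on dim probe sets through 1 array of each group, and lay at or below the 40th percentile of the array in the other 6. The log2 difference was 0.39 at passage 4 against passage 1 (95% interval -0.80 to 1.57), -0.44 in regenerated cells against passage 1 (-1.63 to 0.75) and 0.82 at passage 4 against regenerated cells (-0.37 to 2.01), with adjusted p of 0.763, 0.686 and 0.35. Its SD within groups was 0.83 on the log2 scale, and 2.55% of tested probe sets had a larger one.

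**Figure D2:**
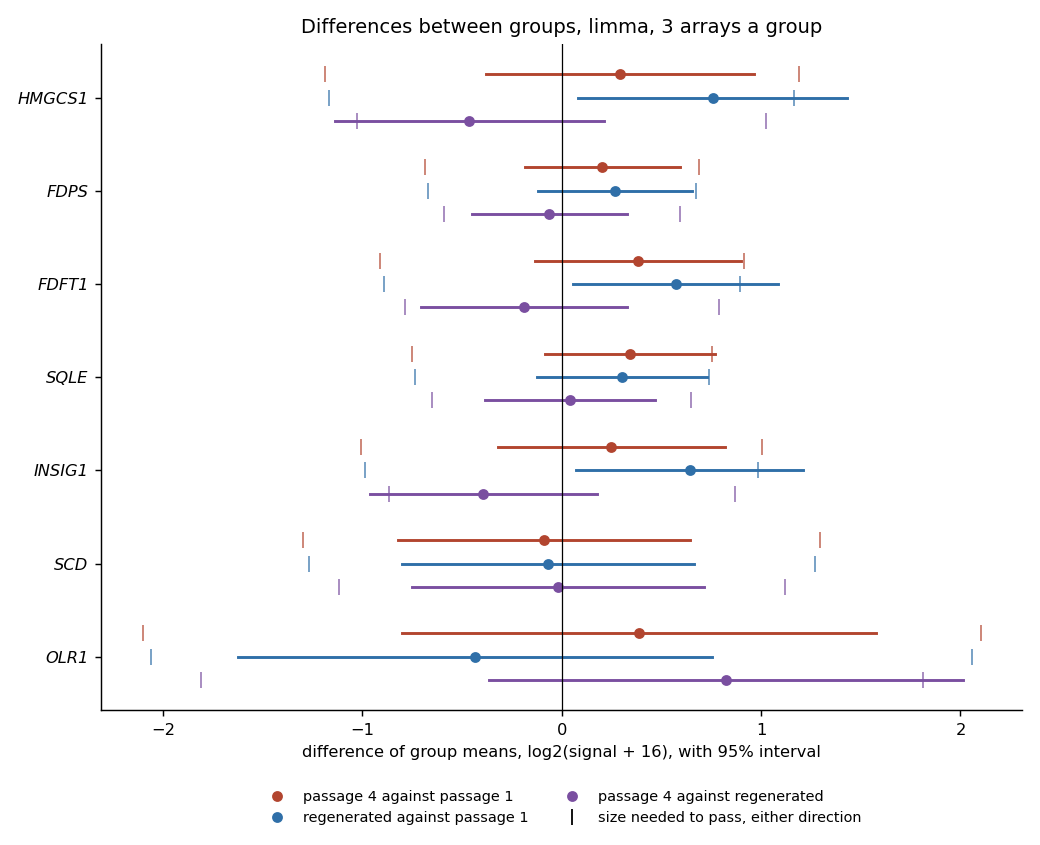
Difference of group means on the log2(signal + 16) scale (horizontal axis) for each gene and comparison, with the 95% interval from limma as a line. Ticks mark the size that would have passed the threshold at that gene's standard error. Points lie inside their ticks for all 7 genes, and the ticks run from 0.59 for FDPS at passage 4 against regenerated cells to 2.10 for OLR1 at passage 4 against passage 1.

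How small a change could have passed differed between the genes. At passage 4 against passage 1, the p of the last probe set called corresponds to a log2 difference of 0.69 for FDPS, 0.75 for SQLE, 0.91 for FDFT1, 1.01 for INSIG1, 1.19 for HMGCS1, 1.30 for SCD and 2.10 for OLR1. These sizes hold for the standard errors of that fit and are no limit on the change that could be detected in other fits. The median log2 difference of the 7 genes was 0.29 at passage 4 against passage 1, where it was 0.04 over all tested probe sets. It was 0.30 in regenerated cells against passage 1, beside -0.01 over all, and -0.06 at passage 4 against regenerated cells, beside 0.01 over all. Both comparisons with passage 1 use the same passage 1 arrays.

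The genes also differed between single arrays of a group, and some did so together. In passage 1 array 3, 5 of the 7 genes (HMGCS1, FDFT1, SQLE, INSIG1 and SCD) had the lowest of their 9 values, while that array held the lowest value of 11.8% of all tested probe sets and of 7 of the 33 other pathway genes described below. The exceptions were FDPS, lowest in passage 1 array 1, and OLR1, lowest in regenerated array 3. Marker sums of passage 1 array 3 went both ways among passage 1 arrays. The sum of leukocyte and macrophage markers, too dim to be tested, was highest there, 163 against 64.6 and 99.6. So was that of fibroblast markers, 3107 against 958 and 1153, of which FBLN1 was 2879, while COL1A2 was lowest there, 122 against 169 and 191. The smooth muscle sum was lowest there, 7986 against 23844 and 12921. The part of other cell types was not tested. Without passage 1 array 3, the regenerated against passage 1 differences were 0.46 for HMGCS1, 0.46 for FDFT1, 0.33 for INSIG1 and -0.46 for SCD, and none passed (adjusted p from 0.403 to 0.463). For passage 4 against passage 1 they were then -0.01 for HMGCS1, -0.06 for INSIG1 and -0.48 for SCD. With the spike-in class as a block, passage 4 is set against passage 1 array 1 alone, so that the spread of that array is taken from the other arrays. The differences were then -0.12 for HMGCS1, -0.31 for INSIG1 and -0.73 for SCD. HMGCS1 and INSIG1 thus changed sign with the passage 1 arrays used. SCD stayed below 0 in both of these fits, but was no steadier over all 17 alternatives, which ran from -0.73 to 0.23. It changed sign in 2 of them, as did HMGCS1 and INSIG1. FDPS (0.28 and 0.50), FDFT1 (0.27 and 0.13), SQLE (0.21 and 0.18) and OLR1 (0.88 and 0.77) stayed above 0 without passage 1 array 3 and against passage 1 array 1.

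Regenerated array 2 held the highest of the 9 values for HMGCS1, FDFT1 and INSIG1, and the highest value of 15.9% of all tested probe sets. As a description over the 9 arrays, which share their probe sets and scaling, HMGCS1 correlated with FDFT1 at r = 0.92 and with INSIG1 at 0.90. After group means were subtracted these were 0.89 and 0.82, and the correlation of INSIG1 with SCD was 0.95. These were the strongest of 21 pairs, whose median was 0.35 over the 9 arrays and 0.03 after group means were subtracted, with 11 of 21 then above 0. SQLE was at 0.18 with HMGCS1 and 0.03 with FDFT1 after group means were subtracted, but at 0.73 with SCD and 0.64 with INSIG1. FDPS did not follow, at 0.20 with HMGCS1 over the 9 arrays and -0.20 after group means were subtracted. OLR1 ran against HMGCS1 and INSIG1, at -0.66 and -0.63 over the 9 arrays, on signals that were mostly dim.

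**Figure D3:**
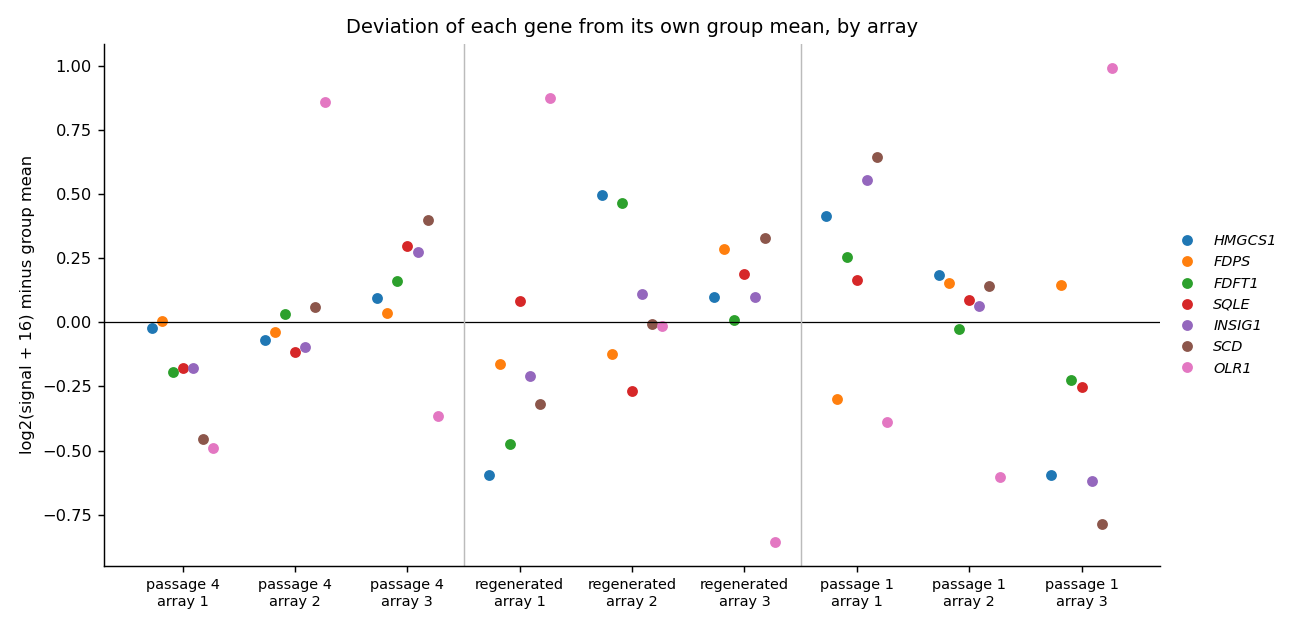
Deviation of each gene from the mean of its own group on the log2(signal + 16) scale (vertical axis) in each array (horizontal axis). HMGCS1, FDFT1, INSIG1 and SCD lie below 0 together in regenerated array 1 and passage 1 array 3, where OLR1 lies above 0, and also in passage 4 array 1, where OLR1 lies below 0.

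The genes most like the enzymes over the 9 arrays were found among 7664 named probe sets of other genes, by the correlation with the mean standardised level of HMGCS1, FDPS, FDFT1 and SQLE. They were GAB1 (r = 0.95, and 0.93 after group means were subtracted), an adaptor of receptor kinases, VKORC1 (0.94 and 0.84), which recycles vitamin K, HSBP1 (0.93 and 0.81), BBX (0.93 and 0.79) and SH3BGR (0.92 and 0.85). Those most like SCD were RALGAPA2 (0.96), RNF13 (0.87) and RHOQ (0.87). Those most like OLR1 were ST3GAL1 (0.97), KIAA0753 (0.94) and EIF4E (0.94). With so many candidates and 9 arrays, such values describe these arrays only.

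Other genes of sterol and fatty acid metabolism were taken from 7 lists, of which 42 of 68 genes, the 7 above included, had a probe set and 40 were tested. In passage 4 against passage 1, 0 of 40 passed, beside 4.79% of all tested probe sets, with a median log2 difference of 0.06. An unadjusted p under 0.05 was found there for 4 of 40, beside 19.7% of all. In regenerated cells against passage 1, 0 of 40 passed, beside 5.49% of all, with a median of 0.16. An unadjusted p under 0.05 was found there for 10 of 40, beside 22% of all. At passage 4 against regenerated cells, 2 of 40 were higher past the threshold and 0 lower, where 8.14% of all tested probe sets were higher and 4.35% lower, and the median was -0.18. The 2 genes past the threshold were ABCA1 and ACAT2, and 8 of 40 had an unadjusted p under 0.05, beside 28.6% of all. These counts take the brightest probe set of each gene. A dimmer probe set of MSMO1, for a sterol methyl oxidase, was also higher at passage 4 than in regenerated cells (0.97, adjusted p = 0.0281), while its brightest was at 0.26 (adjusted p = 0.439).

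ABCA1, which encodes the pump that hands cellular cholesterol to lipid-poor apolipoproteins, had signals of 220, 459 and 461 in the passage 4 arrays, 47.3, 118 and 84.4 in arrays of regenerated cells, and 227, 93.8 and 87.6 in the passage 1 arrays. All passage 4 arrays stood above all regenerated arrays, by a log2 difference of 1.99 (SE 0.41, adjusted p = 0.0102). Against passage 1 the differences were 1.42 at passage 4 (adjusted p = 0.0742) and -0.57 in regenerated cells (adjusted p = 0.462), and neither passed. Passage 1 array 1, of the spike-in class of the passage 4 arrays, was as high as passage 4 array 1. Without passage 1 array 1, ABCA1 rose by 1.82 at passage 4 against passage 1 (adjusted p = 0.0162, in a range up to 0.648). With the spike-in class as a block the difference of passage 4 and regenerated cells was 0.80 (adjusted p = 0.519, the highest of a range that began at 0.00601). These groups share no class, so that value rests on passage 1 array 1 as the only link between the classes, and class and group cannot be told apart without it. The actin and GAPDH values above, the adipocyte sum and the fibroblast sum, which was mostly FBLN1, also differ between these groups. The 3 smooth muscle markers tested all had lower means at passage 4 than in regenerated cells, 1 of them past the threshold.

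ACAT2, for the cytosolic thiolase that makes acetoacetyl-CoA for HMGCS1, had signals of 1929, 2397 and 2550 in the passage 4 arrays, 1086, 1466 and 1385 in arrays of regenerated cells, and 2141, 1672 and 1717 in the passage 1 arrays. The log2 difference of passage 4 and regenerated cells was 0.80 (adjusted p = 0.0168), and no array of one group reached the other. That call was lost without passage 4 array 2 (adjusted p = 0.0644), without passage 4 array 3 (0.0773) and with the spike-in class as a block (0.46, adjusted p = 0.456, again resting on passage 1 array 1), and held in the other 14 alternatives, where adjusted p began at 0.0154. A dimmer probe set of ACAT2 had 1551, 1755 and 2455 in the passage 4 arrays, 403, 261 and 244 in arrays of regenerated cells, and 1432, 514 and 706 in the passage 1 arrays. On that probe set passage 4 exceeded regenerated cells by 2.61 (adjusted p = 0.00157), and regenerated cells fell by 1.40 against passage 1 (adjusted p = 0.0379). Passage 1 array 1 was there close to the passage 4 arrays, and the size of the difference depends on the probe set. In the same comparison the dimmer probe set of the endothelial marker CDH5 was at 2.31 (adjusted p = 0.0139), while its brightest was at -0.14 (adjusted p = 0.539). Spike-in class and group cannot be told apart in this comparison except through that 1 array.

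**Figure D4:**
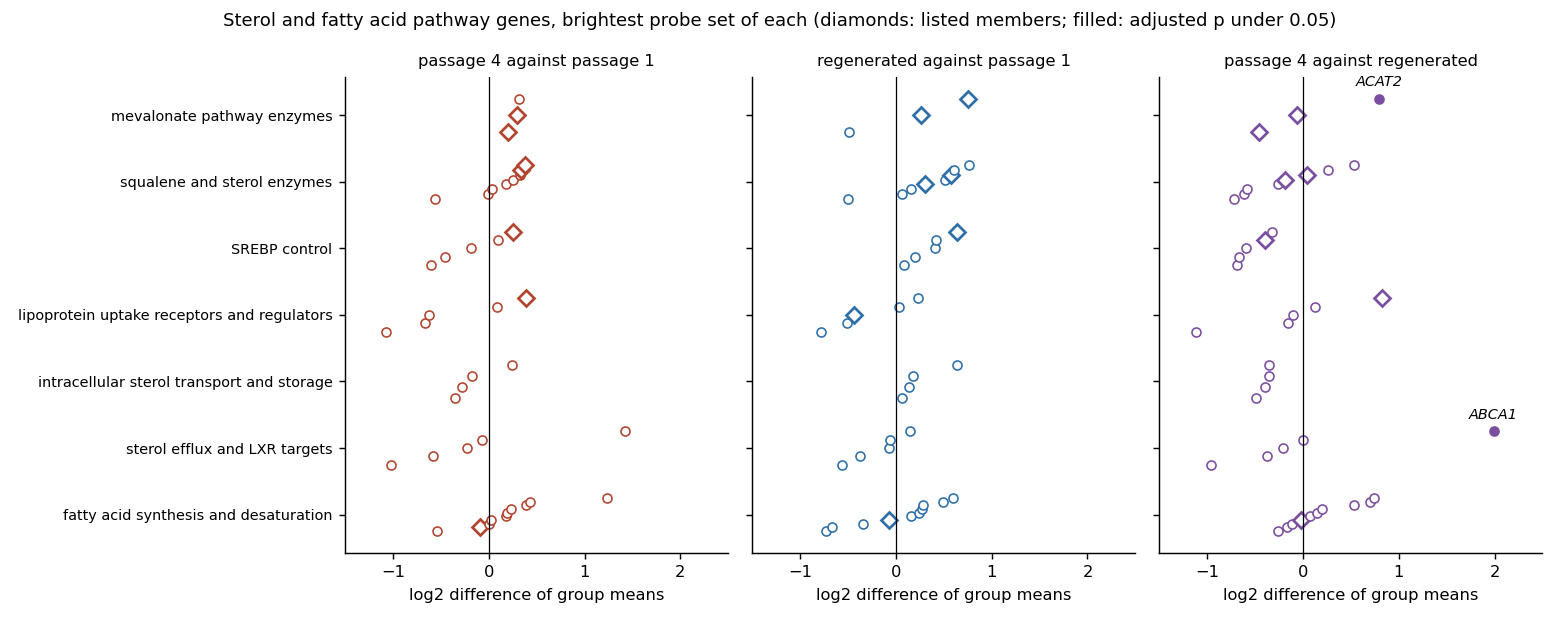
Log2 difference of group means (horizontal axis) of each tested gene of the 7 lists, by list and comparison, with listed members as diamonds and genes with an adjusted p under 0.05 filled. ABCA1 and ACAT2 at passage 4 against regenerated cells are the filled points.

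The other genes named from here on, apart from SREBF2 and SREBF1, were chosen after their values were seen. By list, the mevalonate pathway enzymes tested were HMGCS1, FDPS and ACAT2. Of 8 squalene and sterol enzymes, FDFT1 and SQLE included, 7 had a higher mean in regenerated cells than at passage 1, with a median of 0.41 and 0 past the threshold. The 7 included CYP51, for lanosterol demethylase, at 0.61 (adjusted p = 0.142) and SC5D, for sterol desaturase, at 0.76 (adjusted p = 0.198). CYP51 rose by 0.85 in regenerated cells without passage 1 array 1 (adjusted p = 0.0399, in a range of 0.0396 to 0.39 over alternatives) and SC5D by 1.14 without regenerated array 1 (adjusted p = 0.0329, in a range up to 0.533). NSDHL, another sterol enzyme gene, went the other way, at -0.50 (adjusted p = 0.141). In passage 4 against passage 1, 6 of these 8 enzymes had a higher mean, with a median of 0.22 and 0 past the threshold.

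The 5 SREBP control genes tested all had lower means at passage 4 than in regenerated cells. Their median log2 difference was -0.60, and 0 of 5 passed the threshold. With the spike-in class as a block, which rests on passage 1 array 1, SREBF1 was at 0.91 and SCAP, for the carrier of SREBP, at 0.61. SREBF2, which encodes SREBP-2, stood at 451 ± 60.1 at passage 4, 696 ± 138 in regenerated cells and 514 ± 51.4 at passage 1 (SD, n = 3 each), and was at -0.60 for passage 4 against regenerated cells (adjusted p = 0.0853) and 0.41 for regenerated cells against passage 1 (adjusted p = 0.282). A dim second probe set of SREBF2 went the other way, at 1.13 for passage 4 against regenerated cells (adjusted p = 0.17) and -0.79 for regenerated cells against passage 1 (adjusted p = 0.399). SREBF1, for SREBP-1, was dim, with signals of 56.2 or less in each array. Among 5 genes of lipoprotein uptake, MYLIP, which encodes a ubiquitin ligase, had 258 ± 122 at passage 4, 572 ± 237 in regenerated cells and 527 ± 50.6 at passage 1 (SD, n = 3 each). Its log2 difference was -1.08 at passage 4 against passage 1 (adjusted p = 0.106) and -1.11 against regenerated cells (adjusted p = 0.057), and the last passed in 4 of 17 alternatives (adjusted p from 0.0194 to 0.365). SCARB1, for the HDL receptor SR-BI, was at -0.62 at passage 4 and -0.52 in regenerated cells against passage 1, and did not pass (adjusted p = 0.228 and 0.295). Of 4 genes of sterol transport and storage, NPC2, which moves cholesterol out of lysosomes, was closest to the threshold, at 0.64 in regenerated cells against passage 1 (adjusted p = 0.0628), and passed with quantile normalization (adjusted p = 0.043, in a range up to 0.188). Its other tested probe sets were at 0.10 (adjusted p = 0.814) and 0.23 (adjusted p = 0.719), so the size depends on the probe set. Of 10 fatty acid genes tested, 0 passed in any of the 3 comparisons. Medians were 0.18 for passage 4 against passage 1, 0.20 for regenerated cells against passage 1 and 0.11 for passage 4 against regenerated cells. Without passage 1 array 1, FADS1 fell by 1.36 in regenerated cells (adjusted p = 0.0386, in a range up to 0.84). The spike-in class block gave the same fall (adjusted p = 0.0396). At passage 4 against passage 1 without that array, FADS1 was at -1.17 (adjusted p = 0.0492, range up to 0.981). SCD5 was there at 1.61 (adjusted p = 0.0429, range up to 0.786).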

How the data were processed

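Affymetrix porcine arrays were read as probe-set signals, linear intensities that the authors deposited after MAS5, per the submitters' processing notes. The scaling settings are not stated in the labels or headers. Genes were named from GEO's platform annotation, where 10099 probe sets had 1 symbol, 198 several and 13826 none. Its gene IDs were looked up in the RefSeq table of Sscrofa11.1 (9989 found, 0 symbols changed). Control probe sets were left out, and a probe set was kept where at least 3 of the 9 arrays exceeded that array's 40th percentile, which left 15299. Then log2(signal + 16) was fitted with group means over the 9 arrays in limma 3.58.1 (R 4.3.3), with moderated variances and an intensity trend, two-sided, and Benjamini-Hochberg adjustment per comparison at 0.05. The fit had 6 residual degrees of freedom. The 3 comparisons share arrays. Several probe sets of a gene were represented by the brightest. The procedure was tested on simulated data. The number of arrays limits the precision. The genes and lists were chosen with earlier results of these data known. Named were the listed genes, SREBF1 and SREBF2, up to 4 other pathway genes a list and comparison past the threshold, and the genes most alike over arrays, while other names were chosen after their values were seen. LSS and CD36 were not analysed here. Alternatives covered the pseudocount, filter, normalization, variance model, blocks and leaving out each array.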

Additional observations from a re-analysis of the deposited data

Results flagged for a closer look

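For 2 pathway genes the change against passage 1 differed between passage 4 and regenerated cells, by limma's test of that difference, in which the shared passage 1 arrays cancel. ABCA1 differed by 1.99 on the log2 scale (passage 4 minus regenerated, adjusted p = 0.0102), and all 3 passage 4 arrays were above all 3 regenerated arrays. ACAT2 differed by 0.80 (adjusted p = 0.0168), again with all 3 passage 4 arrays above all 3 regenerated arrays. With the spike-in class as a block, a value that rests on passage 1 array 1 as the only link between the classes, neither passed (ABCA1 0.80, adjusted p = 0.519, and ACAT2 0.46, adjusted p = 0.456). ACAT2 also did not pass without passage 4 array 2 (adjusted p = 0.0644) or array 3 (adjusted p = 0.0773). Over 17 alternatives adjusted p ran from 0.00601 to 0.519 for ABCA1 and from 0.0154 to 0.456 for ACAT2. Neither was among the 7 measured genes of the list.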

How the results depend on the processing

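Over 17 alternatives a gene and comparison (16 for OLR1, which the stricter filter removed), the 354 values of the 7 genes stayed on their side of the threshold in 351 cases, 3 came to pass and 0 reversed as a call, while 22 values that did not pass changed sign. Counts past the threshold over all tested probe sets moved more. In regenerated cells against passage 1 they were 479 with only those groups fitted and 554 with the replicate block, against 840. With the spike-in class as a block, where passage 1 array 1 is the only passage 1 array of the passage 4 arrays' class, they were 150 for passage 4 against passage 1 and 35 for passage 4 against regenerated cells, against 733 and 1912. That block gave 1 listed gene and 3 pathway genes in regenerated cells against passage 1, and 0 pathway genes at passage 4 against regenerated cells. Quantile normalization gave 1 pathway gene in regenerated cells against passage 1. Leaving out 1 array gave 244 to 1403, 291 to 1238 and 895 to 2376 calls over all probe sets for passage 4 against passage 1, regenerated cells against passage 1 and passage 4 against regenerated cells. It gave 0 to 4, 0 to 3 and 1 to 5 pathway genes, and 0 to 1 listed genes in regenerated cells against passage 1 and 0 in the other comparisons. The causes were not tested. The labels do not say that replicate numbers pair the arrays. Correlations of same-numbered deviations ran from -0.14 to 0.19, with 1 of 9 over 0.1. They were not set beside those of differently numbered arrays, so they cannot decide whether arrays were paired. With the replicate block 0 listed genes passed. Dim signals limit OLR1 and the second INSIG1 probe set.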
